A study of Caenorhabditis elegans with 2 samples.

Results

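The replication helicase genes of Caenorhabditis elegans described here are mcm-2, mcm-3, mcm-4, mcm-5, mcm-6 and mcm-7, which encode the MCM ring, psf-1, psf-2 and psf-3, which encode subunits of the GINS complex, and cdt-1, which encodes the licensing factor CDT-1. They are 10 of the 19973 protein-coding genes on the nuclear chromosomes. They were selected by name with their peaks in these data already known, so their peak scores and the count of bound genes below are a description and carry no test. ChIP-seq mapped the chromatin protein XND-1, known for its role in the germline, in 1 group of worms with 2 biological replicates. The worms were whole hermaphrodites of the transgenic strain QP0661, whose XND-1 carries GFP and FLAG at its C terminus, collected as young adults 50 h after starved L1 larvae were released, and chromatin was precipitated with an anti-GFP antibody according to the sample descriptions. The antibody field of the labels instead names xnd-1, so the antibody is not settled by the labels. In whole worms, binding in few cells and weak binding in many cells cannot be told apart. No list from worms without the tag was used here, so occupancy that any ChIP might show at these promoters was not separated from binding of XND-1, and read depth is unknown.

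The MCM proteins form a ring of 6 different subunits that is loaded onto DNA at origins by the origin recognition complex, CDC-6 and CDT-1. GINS and CDC-45 then join the ring and turn it into the active helicase that unwinds DNA at the fork. In the worm these proteins serve the mitotic germ cells and the rapid divisions of the embryo, and CDT-1 is degraded once replication has begun so that origins are licensed once per cycle. E2F factors and the DREAM complex are known regulators of replication genes in animals. E2F binds words such as TTTCGCGC, and the cell cycle homology region, TTTGAA or TTCGAA, is the word bound by the LIN-54 subunit of DREAM.

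A peak list gives, for each peak, a summit and a score (signalValue) assigned by the authors' peak caller, comparable only within its list. The strictest list holds the peaks kept by the authors' step for the irreproducible discovery rate (IDR), and a gene is called bound here when its promoter window holds a summit of that list. The window ran from 500 bp before to 200 bp after any 5′ end annotated for its protein-coding transcripts. Of the 10 genes, 7 were bound (70%), against 6.68% of all protein-coding genes and 7.68% of autosomal ones, and all 10 lie on autosomes. The 7 were the 6 MCM genes and psf-3.

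At their summits, 4 of the 7 bound genes carried the same pair of words, and sequences are shown for that reason. Those of mcm-4, which holds both kinds of word, and psf-3, which holds neither, are not printed. Each sequence below covers a summit and 50 bases on either side of it, read 5′ to 3′ in the direction of the gene's transcription, from the RefSeq WBcel235 (ce11) genome. Capitals mark the E2F-like words (TTTCCCGC, TTTGGCGC, TTTCGCGC or TTTGCCGC, on either strand) and the cell cycle homology words (TTTGAA or TTCGAA, on either strand). The windows of mcm-3 (chrV:15059699-15059799, reverse strand), mcm-5 (chrIII:4291414-4291514, reverse strand) and mcm-7 (chrV:4346959-4347059, forward strand) hold both kinds of word. The window of mcm-2 (chrII:12006824-12006924, reverse strand) holds cell cycle homology words alone. The gene mcm-6 has a pair of bound summits, of which the stronger (chrIII:9793917-9794017, forward strand) holds neither word and the second (chrIII:9794118-9794218, forward strand) holds an E2F-like word. The window of psf-1 (chrII:9968412-9968512, forward strand), which is not bound, holds neither.
mcm-3: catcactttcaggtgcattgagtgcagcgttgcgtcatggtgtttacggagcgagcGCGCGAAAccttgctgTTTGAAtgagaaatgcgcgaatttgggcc
mcm-5: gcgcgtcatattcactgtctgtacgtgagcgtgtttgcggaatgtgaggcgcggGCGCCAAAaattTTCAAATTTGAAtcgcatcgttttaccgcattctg
mcm-7: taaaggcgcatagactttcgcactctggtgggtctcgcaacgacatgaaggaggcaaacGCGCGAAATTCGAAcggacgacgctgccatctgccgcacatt
mcm-2: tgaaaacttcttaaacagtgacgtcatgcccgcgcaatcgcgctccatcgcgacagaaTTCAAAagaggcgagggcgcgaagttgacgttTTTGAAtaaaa
mcm-6: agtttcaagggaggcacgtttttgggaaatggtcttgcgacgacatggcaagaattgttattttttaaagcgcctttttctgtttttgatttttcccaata
mcm-6 second summit: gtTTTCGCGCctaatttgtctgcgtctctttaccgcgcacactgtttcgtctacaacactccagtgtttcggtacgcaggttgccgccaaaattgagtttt
psf-1: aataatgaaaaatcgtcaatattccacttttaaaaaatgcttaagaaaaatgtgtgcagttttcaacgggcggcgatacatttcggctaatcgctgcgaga

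An E2F-like word lay within 50 bp of the highest summit in mcm-3, mcm-4, mcm-5 and mcm-7, which is 4 of the 7 bound genes (57.1%). The same word lay in 206 of the 1841 windows at IDR-thresholded summits (11.2%) and in 381 of 19973 windows of the same length centred 150 bp upstream of each protein-coding gene's outermost 5′ end (1.91%). In mcm-3, mcm-4 and mcm-7 the word read GCGCGAAA in the direction of transcription, and in mcm-5 it read GCGCCAAA. It began 6 bp past the summit in mcm-3, 26 bp in mcm-4, 4 bp in mcm-5 and 9 bp in mcm-7. These positions are 144, 131, 194 and 148 bp upstream of the 5′ ends of those genes in the same order. In mcm-6 the word at the second summit of the pooled list read TTTCGCGC and began 48 bp before that summit, 247 bp upstream of the 5′ end. Replicates 1 and 2 placed that summit 237 and 145 bp upstream, so in replicate 2 the word was not within 50 bp of it. With that pooled summit, 5 of the 6 MCM genes had an E2F-like word at a bound summit. No share of all bound genes counted over any summit is given here. Neither psf-3 nor the 3 unbound genes had one at their highest summit.

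In the 4 genes with both words, a cell cycle homology word followed the E2F-like word downstream. The bases between them numbered 8 in mcm-3, 2 and 8 in mcm-4, where 2 such words followed, 4 and 10 in mcm-5, where 2 followed as well, and 0 in mcm-7. The arrangement counted was an E2F-like word read so that it ends in AAA, with a cell cycle homology word starting at most 20 bp after the start of the first, along either strand. It lay in 2.66% of IDR-thresholded windows (49) and in 0.285% of promoter windows (57). It was defined after the sequences of these genes had been seen. The cell cycle homology word alone was in 5 of the 7 bound windows (71.4%), those of mcm-2, mcm-3, mcm-4, mcm-5 and mcm-7. It was in 33.8% of IDR-thresholded windows and in 34.1% of promoter windows. Within 100 bp of the summit it was still in 5 of the 7, but in 56.9% of IDR-thresholded and 55.9% of promoter windows. These matches are letters in a window and were not tested as binding sites.

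**Figure D1:**
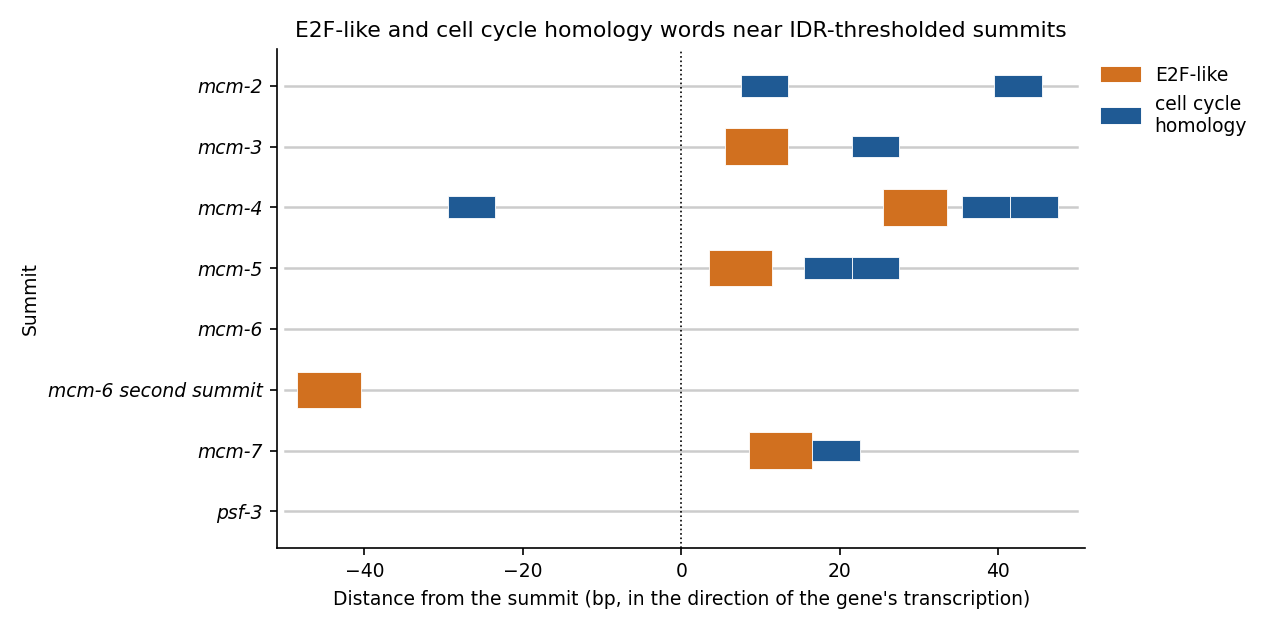
E2F-like words (orange) and cell cycle homology words (blue) within 50 bp of each IDR-thresholded promoter summit of the 7 bound genes; the horizontal axis is the distance from the summit in bp, along the gene's transcription. In mcm-3, mcm-4, mcm-5 and mcm-7 the E2F-like word begins 4 to 26 bp past the summit and a cell cycle homology word lies just after it.

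The 4 windows with both words had more GC than most IDR-thresholded windows. GC content was 52.5% in the window of mcm-3, 54.5% in mcm-4, 48.5% in mcm-5 and 55.4% in mcm-7, against a median of 41.6% over IDR-thresholded windows and 33.7% over promoter windows. Of all IDR-thresholded windows, 87.1%, 92.2%, 76.6% and 94.1% had a lower GC content than these 4 in the same order. The stronger mcm-6 window had 37.6% and psf-3 had 38.6%, and both lacked an E2F-like word. The window of mcm-2, with 47.5%, lacked one too, whereas the second mcm-6 window, with 48.5%, held one. Among the other replication genes described below, the windows with an E2F-like word had less GC. They had 44.6% at sld-2, clsp-1 and pole-1, 34.7% at pold-2 and 27.7% at pold-1. The part of GC content in the frequency of E2F-like words was not tested. Of the other words searched, GAGA lay in 3 of the 7 windows (42.9%), against 65.6% of IDR-thresholded and 55.3% of promoter windows. Its repeat GAGAGA and the E box CACGTG lay in 0 of the 7, against 7.66% and 2.39% of IDR-thresholded windows. Within 100 bp of the summit GAGAGA lay in 2 of the 7 windows (28.6%), against 14.4% of IDR-thresholded and 15.7% of promoter windows.

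The MCM genes were bound in all 6 cases, and the strength of their peaks differed widely. The highest was at mcm-2 (WBGene00003154, chromosome II, 12001509 to 12006625, reverse strand), with a score of 966 in the pooled list, 455 in replicate 1 and 510 in replicate 2. It ranked 56 of 24467 pooled peaks, 56 of 22772 in replicate 1 and 53 of 22364 in replicate 2. The peak was thus among the strongest of the genome in each list, and mcm-2 was 49th of the 1334 bound genes by score. Its summit lay 249 bp upstream of the 5′ end in the pooled list and 252 and 248 bp upstream in replicates 1 and 2.

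The gene mcm-6 (WBGene00003158, chromosome III, 9794367 to 9798644, forward strand) had 2 IDR-thresholded summits within 1 peak of 564 bp. The summit 400 bp upstream scored 329 in the pooled list, and the one 199 bp upstream scored 225. Both summits were in each replicate's list, with scores of 177 and 108 in replicate 1 and 156 and 78.0 in replicate 2. The upstream summit was thus the higher of the pair in all 3 lists. It was the most distant from its 5′ end among the 7 bound genes, and replicates 1 and 2 placed it 437 and 344 bp upstream. The other summit lay 237 bp upstream in replicate 1 and 145 bp in replicate 2, so the pair shifted together. Whether the pair marks 2 separate sites was not tested.

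The other 4 MCM genes had scores nearer the middle of the bound genes. At mcm-3 (WBGene00003155, chromosome V, 15056719 to 15059599, reverse strand) the pooled score was 240, with 121 in replicate 1 and 118 in replicate 2, and the summit lay 150 bp upstream. At mcm-7 (WBGene00003159, chromosome V, 4347166 to 4349768, forward strand) it was 176, with 93.2 and 84.4 in replicates 1 and 2 and the summit 157 bp upstream. The mcm-3, mcm-4 and mcm-7 peaks were 259, 218 and 211 bp wide in the pooled list in that order, although the mcm-7 peak was 450 bp wide in replicate 2. At mcm-5 (WBGene00003157, chromosome III, 4288264 to 4291266, reverse strand) the pooled score was 157, with 74.8 and 81.5 in replicates 1 and 2 and the summit 198 bp upstream. At mcm-4 (WBGene00003156, chromosome I, 2318291 to 2321817, reverse strand) it was 141, with 63.6 and 76.3 in replicates 1 and 2 and the summit 157 bp upstream. The order of mcm-4 below mcm-5 was the same in all 3 lists, and mcm-2, mcm-3, mcm-6 and mcm-7 stood above them in each.

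**Figure D2:**
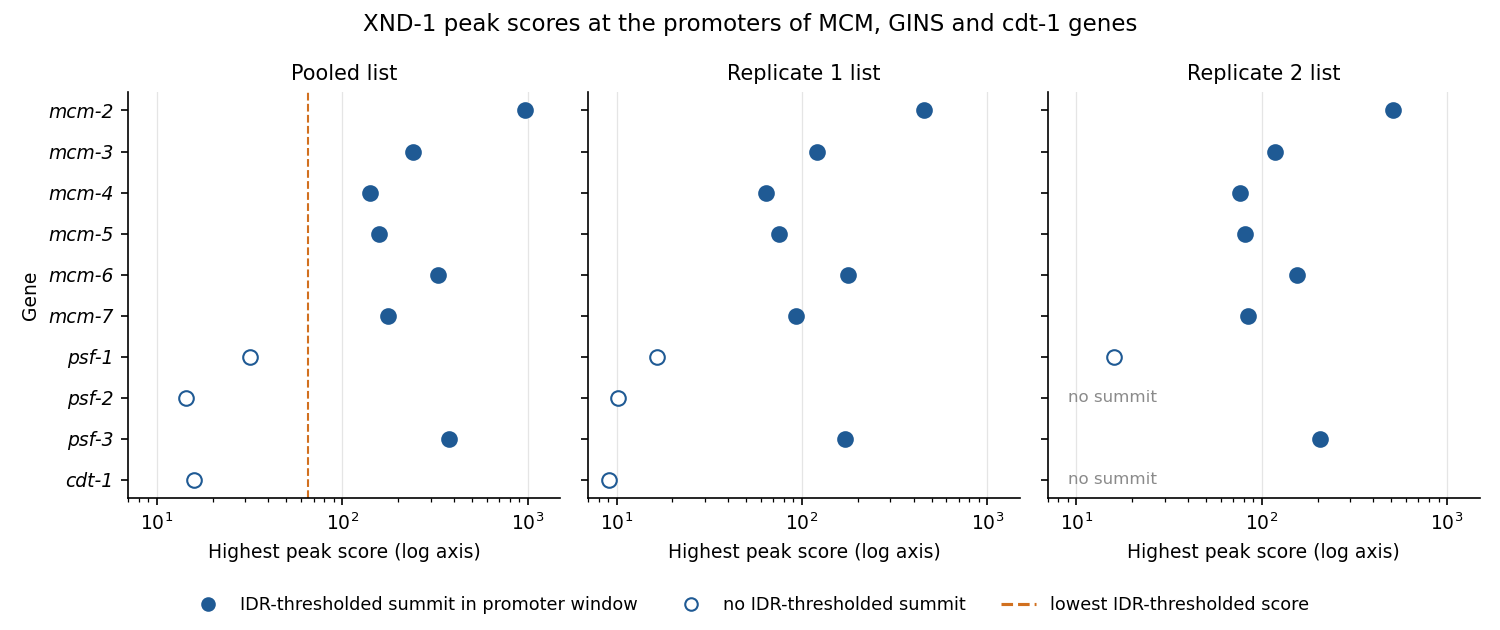
Highest promoter peak score of each gene in the pooled list and in the lists of replicates 1 and 2 (log axes; scores are comparable only within a panel); filled points are genes with an IDR-thresholded summit, open points genes without, and the dashed line is the lowest IDR-thresholded score, 65.6. The 7 filled points run from 141 at mcm-4 to 966 at mcm-2 in the pooled list, and the 3 open points lie at or below 32.0.

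The GINS genes were split. psf-3 (WBGene00022043, chromosome I, 534455 to 535344, forward strand) scored 378 in the pooled list, 171 in replicate 1 and 205 in replicate 2. Among the 10 genes mcm-2 alone stood above it in the pooled list and in replicate 2, and mcm-2 and mcm-6 did in replicate 1. It ranked 293 in the pooled list, and its summit lay 141 bp upstream of the 5′ end in the pooled list and replicate 2 and 145 bp upstream in replicate 1. psf-1 (WBGene00011275, chromosome II, 9968673 to 9969630, forward strand) had weak summits of 32.0 in the pooled list, 16.5 in replicate 1 and 16.0 in replicate 2. Its −log10 q was 1.25 in the pooled list, whose highest value is 3.78. psf-2 (WBGene00009287, chromosome I, 15053010 to 15053672, forward strand) scored 14.4 in the pooled list, at rank 20643, and 10.2 in replicate 1, and it had no promoter summit in replicate 2. Its −log10 q values were 0.05 and 0.16. The remaining GINS subunit gene, sld-5, had no promoter summit in the pooled list or in replicate 1 and 1 of 9.43 in replicate 2, at rank 18017. Of the 4 GINS genes, psf-3 alone was bound.

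The licensing factor gene cdt-1 (WBGene00000413, chromosome I, 3223160 to 3228104, reverse strand) resembled psf-2. It scored 15.9 in the pooled list, at rank 17484, and 9.06 in replicate 1, and had no promoter summit in replicate 2. Its −log10 q was 0.09 in the pooled list. These lists were deposited as loose input for the IDR step and include background regions, so a summit there does not by itself mark a bound gene. In the pooled list, all 10 genes had a promoter summit, against 27.7% of protein-coding genes. In replicate 1 all 10 had one, against 27.3%, in replicate 2 it was 8, against 25.6%, and 8 had one in both replicate lists, against 17.5%. Near the threshold, the bound gene with the lowest score was mcm-4 at 141 and the unbound gene with the highest was psf-1 at 32.0, while the IDR-thresholded list went down to 65.6. No gene of the 10 lay between these values.

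The 7 bound genes had a median highest score of 240, against 145 over all 1334 bound genes, and 6 of them stood above that value; mcm-4 stood below it. Their summits lay 141 to 400 bp upstream, with a median of 157 bp, against 195 bp over all bound genes. The replicates placed the highest summit of a bound gene 4 to 93 bp apart, with a median of 22 bp, against 18 bp over 1320 bound genes with a summit in both lists. The distance was 4 bp for mcm-2 and psf-3 and 93 bp for mcm-6. The ratio of the ranks in the replicates, larger over smaller, had a median of 1.10 and reached 1.2 at mcm-4, against a median of 1.22 over the same 1320 genes. The replicates thus gave the 7 genes close ranks, as they did for bound genes in general. Both replicates entered the IDR step, so this is no independent check of the list.

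**Figure D3:**
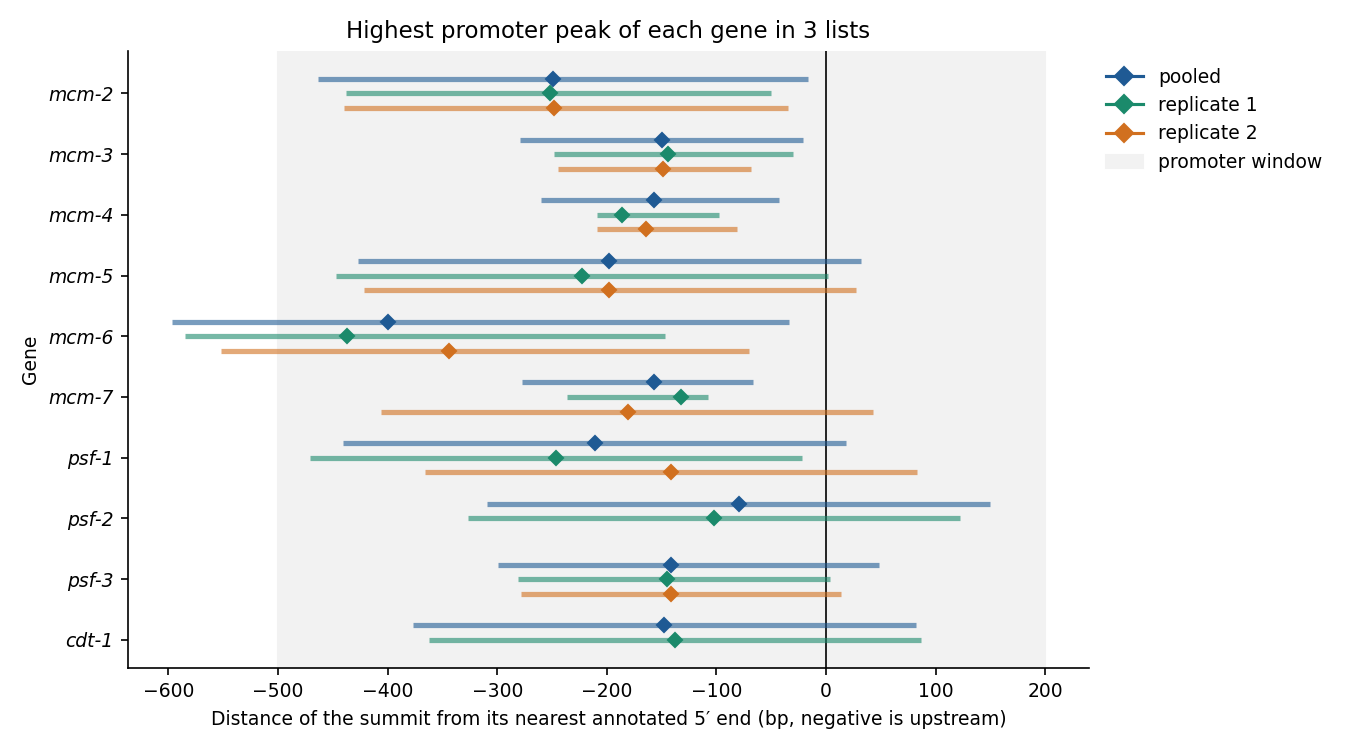
Position of the highest promoter peak of each gene in the pooled list and in each replicate's list; the horizontal axis is the distance in bp from the nearest annotated 5′ end, diamonds are summits, bars the peak intervals and the grey band the promoter window. Summits of the bound genes lie 141 to 400 bp upstream in the pooled list, and psf-2 and cdt-1 have no bar for replicate 2.

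Inside the gene bodies, most peaks were weak. The highest pooled summit inside the gene body but outside any promoter window scored 31.7 at mcm-2, 29.6 at mcm-3, 38.3 at mcm-5, 24.1 at mcm-6 and 18.6 at mcm-7. The exception was mcm-4, whose body held an IDR-thresholded summit of 84.9 close to its 3′ end, 347 bp downstream of an annotated internal 5′ end. psf-1, psf-2, psf-3 and cdt-1 had none there. A further IDR-thresholded summit of 261 lay 978 bp downstream of the 5′ end of psf-3, past the end of that gene, and another of 250.1 lay 2410 bp downstream. Past the end of mcm-4, 5707 bp downstream of its 5′ end, an IDR-thresholded summit scored 408, above the 141 at the mcm-4 promoter. The nearest pooled summit outside the promoter windows was otherwise 807 to 4068 bp from a 5′ end and scored at most 45.8.

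**Figure D4:**
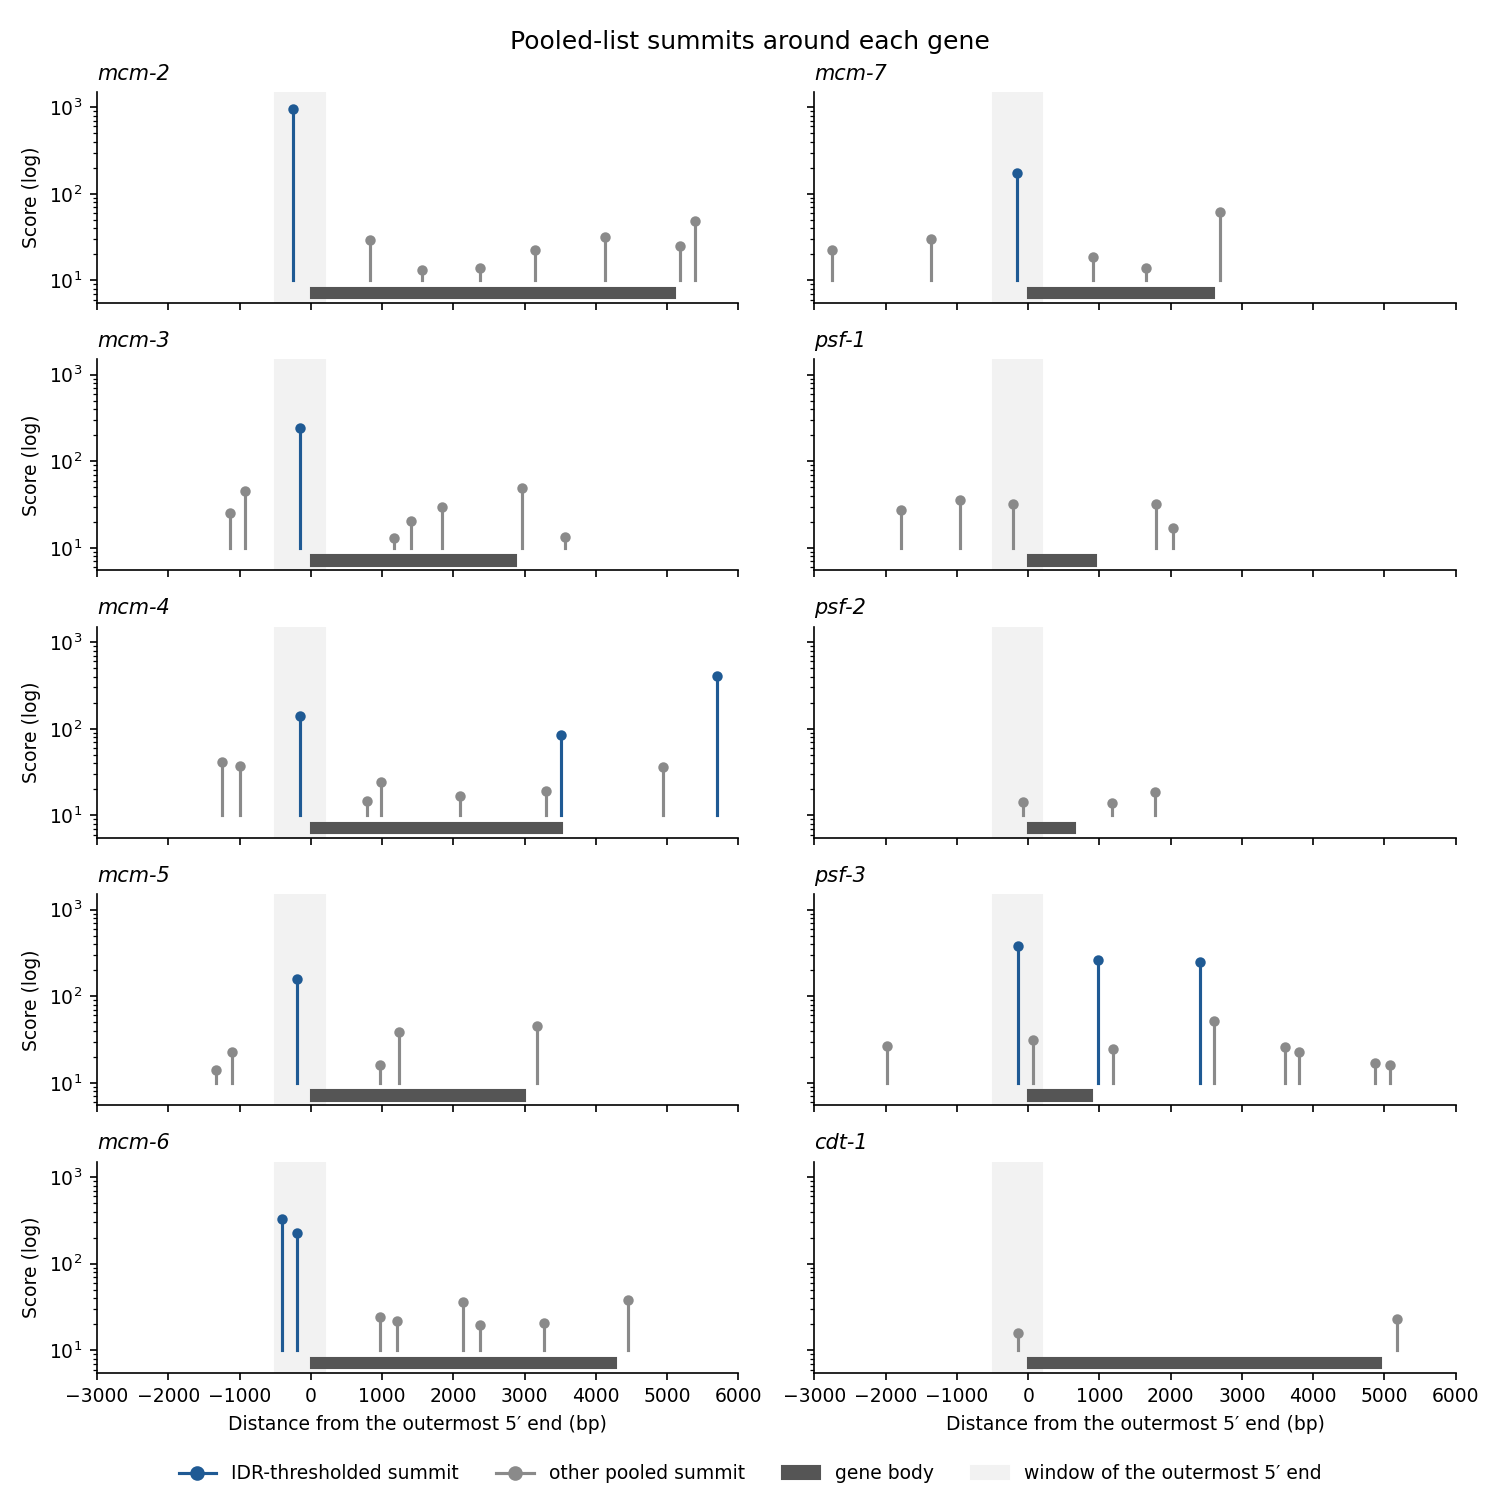
Pooled-list summits from 3000 bp upstream to 6000 bp downstream of the outermost 5′ end of each gene, with the score on a log axis; blue stems are IDR-thresholded summits, grey stems the others, dark bars the gene bodies and grey bands the promoter windows. The MCM genes show 1 or 2 tall stems in the band and low ones along the body, except the summit of 84.9 near the 3′ end of mcm-4; taller stems past the gene ends are those of 408 at mcm-4 and of 261 and 250.1 at psf-3.

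Some of the summits lay in the promoter windows of 2 genes. The mcm-3 summit also lay in the promoter window of C25D7.15, on the opposite strand 208 bp away, and was 59 bp upstream of that gene. The stronger mcm-6 summit lay 325 bp upstream of R10E11.9, on the opposite strand, with 724 bp between the genes. The weaker mcm-6 summit, which holds the E2F-like word, was not in the window of R10E11.9. The weak psf-1 summit lay 413 bp upstream of R53.4, also on the opposite strand. Weak pooled summits of 36.5 and 19.8 at an internal 5′ end of mcm-6 were shared with srxa-10. The summits of mcm-2, mcm-4, mcm-5, mcm-7 and psf-3 were in no other gene's window. For the 3 unbound genes, the nearest gene upstream on the same strand was far away and not bound. It was egl-43 for psf-1 (5652 bp away, pooled score 23.4) and gldr-2 for psf-2 (12472 bp, 46.2). For cdt-1 it was mab-31 (16046 bp), which had no pooled promoter summit.

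The genes with scores closest to the 3 highest of the 10 were found by the distance of log2 scores over the lists of replicates 1 and 2, among all genes outside the replication list. For mcm-2 they were dkf-2, which encodes a protein kinase D (453 and 519 in replicates 1 and 2), and ZK792.7 (443 and 519). For psf-3 they were C34C12.8 (172 and 207) and Y66D12A.16 (165 and 205). For mcm-6 they were R10E11.9, by its shared summit, and F27D4.12 (174 and 156). These matches rest on 2 lists and on score alone.

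Other genes that act with the helicase were bound in 14 of 41 cases (34.1%), read against the 6.68% of all protein-coding genes. Their median score was 165 and their summits lay 125 to 254 bp upstream, with a median of 166 bp. The loader genes orc-1 and orc-5 of the origin recognition complex were bound (78.8 and 138), whereas orc-2, orc-3 and orc-4 were not. Both genes of the licensing list were bound. cdc-6, whose product loads MCM with CDT-1, scored 160 in the pooled list, 78.4 in replicate 1 and 76.5 in replicate 2. gmn-1, which encodes the CDT-1 inhibitor geminin, scored 550 in the pooled list, 255 in replicate 1 and 294 in replicate 2. Among the genes of CDT-1 turnover, cul-4, the scaffold of the ubiquitin ligase that degrades CDT-1, scored 914 in the pooled list, 445 in replicate 1 and 466 in replicate 2. Its partners ddb-1 and cdt-2 were not bound. CDT-1's own gene thus had a weak summit, while genes for its inhibitor and for the scaffold of its ligase had strong ones.

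At the later steps, sld-2 and dnsn-1, the worm relatives of factors that fire origins in yeast and vertebrates, were 2 of 6 origin firing genes bound (111 and 113). ctf-4, which links the helicase to polymerase, was 1 of 3 cofactor genes (71.4), and mcm-10, a helicase activator, was not bound (50.4 in the pooled list, 26.3 in replicate 1 and 24.9 in replicate 2). The genes for fork speed and protection, tim-1 (280), tipn-1 (157) and clsp-1 (268), were bound in 3 of 3 cases. Helicase unloading had 2 of 8, ubxn-3 (303), whose product is a cofactor of CDC-48, and cdc-48.1 (454), which encodes that unfoldase, known to take the helicase off DNA. Of the genes for single-strand binding protein, rpa-4 was bound (171) and rpa-2 had no promoter summit in any list. rpa-1 had a summit of 37.4 in replicate 1 and 16.1 in replicate 2 and none in the pooled list. None of the 8 primase and polymerase genes was bound, which for a set of 8 is near the 6.68% of all protein-coding genes. All 8 had a pooled promoter summit, against 27.7% of protein-coding genes, the highest at pola-1 (56.2) and pole-1 (53.6). The lowest of the 8 was div-1 (21.3), below the median highest score of 27.6 over all genes with a pooled promoter summit. It had no promoter summit in replicate 1.

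**Figure D5:**
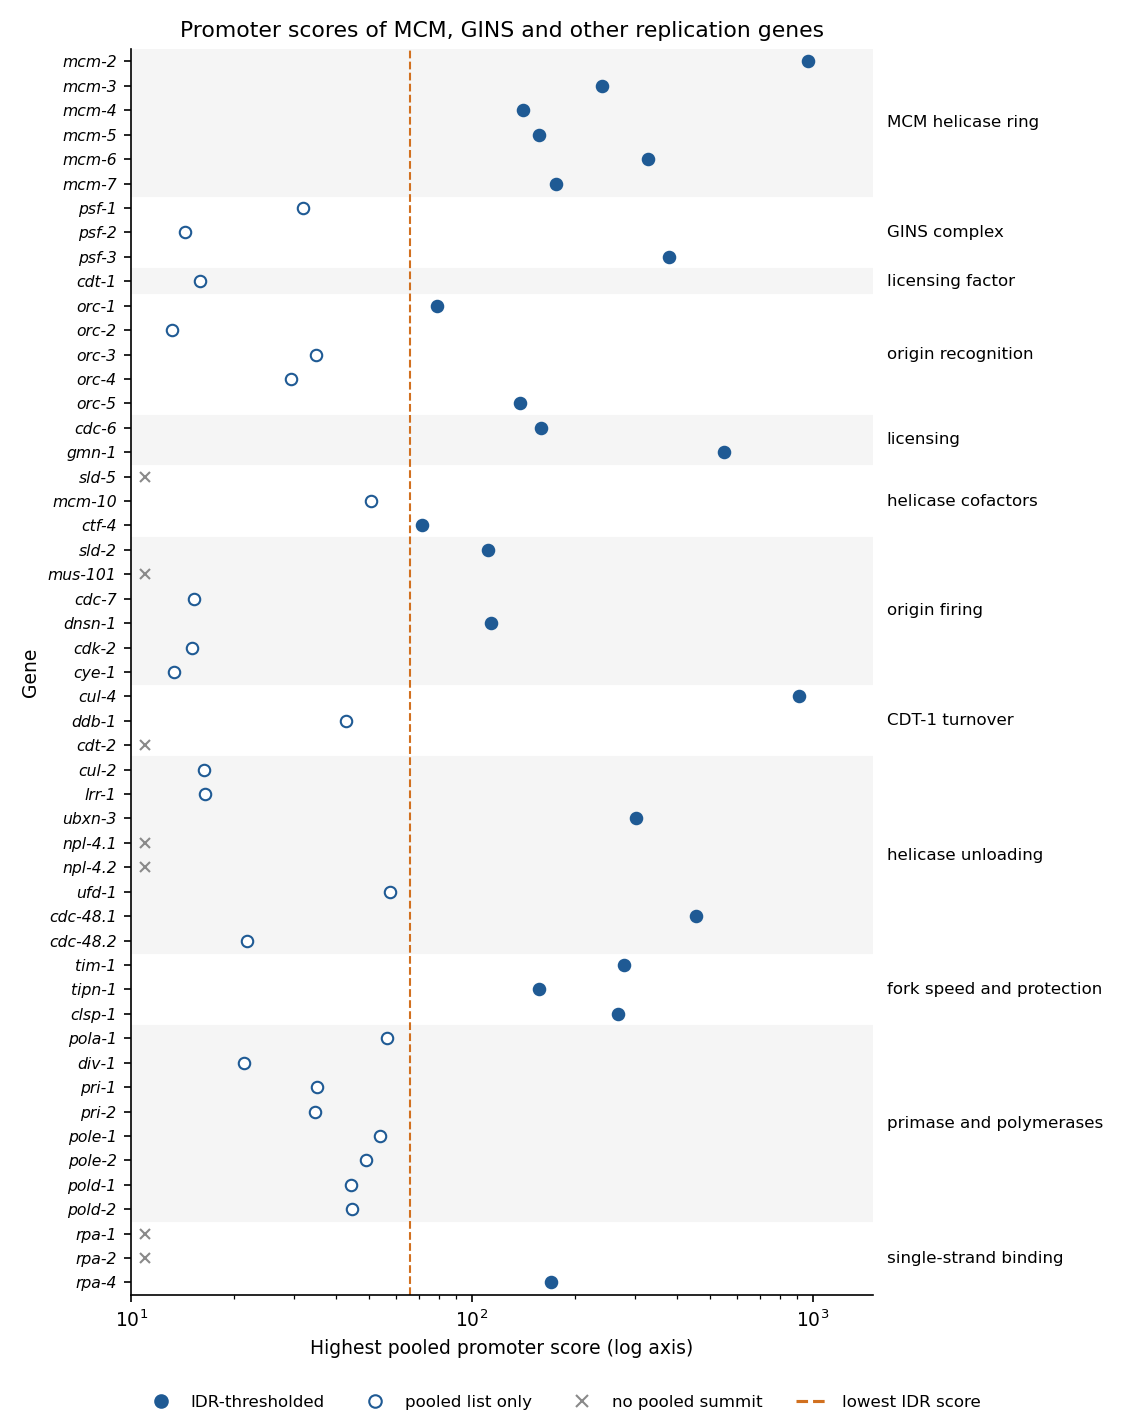
Highest pooled promoter score (log axis) of each of the 10 genes and of 41 other replication genes, in blocks by role; filled points are bound genes, open points have a pooled summit only, crosses have none, and the dashed line is the lowest IDR-thresholded score, 65.6. All 6 MCM genes lie right of the line, as do 3 of 3 fork protection genes, and all 8 primase and polymerase genes lie left of it. Of all protein-coding genes, 6.68% were bound, so none of 8 is near that share.

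The order of words counted at mcm-3, mcm-4, mcm-5 and mcm-7 was not found among these other genes. That order is rare, at 2.66% of IDR-thresholded windows, so counts of 0 in sets of 14 and 20 are near that share. Of the 14 bound ones, 2 had an E2F-like word at the highest summit (14.3%), sld-2 and clsp-1. A cell cycle homology word was in 6 (42.9%), and sld-2 and clsp-1 were among them. Thus sld-2 and clsp-1 held both kinds of word, but 0 of the 14 had the second after the first as counted above. Of the 20 with a pooled summit only, 3 had an E2F-like word (15%), pole-1, pold-1 and pold-2, and 0 had both in that order. The difference between the MCM genes and the other genes was not tested, because the MCM genes were chosen with their peaks known and the arrangement was defined on them.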

How the data were processed

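XND-1 ChIP-seq of 2 biological replicates of 1 group was analysed from peak lists. Per the deposited descriptions, peaks were called for each replicate and for both pooled, with a control alignment, as loose input for IDR, and an IDR-thresholded list was made from them. The aligner, peak caller and IDR cut-off are not given in the sources used here. Each deposited peak carries a score (signalValue), of no stated unit, and a −log10 q value from the authors' caller. Scores were used to rank and describe peaks within a list. Peak lists hold no read counts, so depth and the precision it gives are unknown. The replicates are labelled as biological replicates.

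The 4 lists on ce11 were used, with the WBcel235 annotation release 115 and the RefSeq genome of the same build; lists on ce10 were not used. Where a gene had several summits in its windows, the highest score was taken. Words were searched on both strands within 50 bp of each summit, and promoter windows of the same length were centred 150 bp upstream. The members and lists were chosen with earlier results of these data known, so no test was made on them. Of 44 names of other replication genes, 41 found a gene, 2 of them by RefSeq symbol; cdc-45, sld-3 and dbf-4 found none. Named genes are the 10 genes, genes sharing their summits, the same-strand upstream neighbours of unbound ones, bound replication genes, sld-5 and mcm-10, and the 2 nearest genes by score for the 3 highest; others named, such as orc-2, rpa-1 and the polymerase genes, were chosen after their values were seen. Alternatives were other promoter windows, peak overlap, outermost 5′ ends, shorter and longer lists, each replicate alone and the summit nearest a 5′ end. The assignment of summits to genes was tested on simulated data. Work was done in Python 3.11.15 with matplotlib 3.10.9.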

Additional observations from a re-analysis of the deposited data

How the results depend on the processing

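Of 57 values recomputed under an alternative, 51 stayed within 1.5 times of the reported one and 6 moved further. Scores of single genes made up 28 of the 57, and 25 of these stayed, often because the same peak was taken again. The count of 51 is therefore no measure of how robust the results are. The same 7 genes were bound under most alternatives, given here with the share of all genes bound. These were the window of 1000 bp upstream to 500 bp downstream (8.5%), any overlap (7.59%) and outermost 5′ ends (6.25%). The others were the stronger peaks (3.7%), the list with 2 times as many pooled peaks (10.6%), replicate 1 alone (6.67%) and replicate 2 alone (6.37%). The calls among the stronger peaks and in the longer list follow from the pooled scores given above, so they are no separate check. With the window of 200 bp upstream to 100 bp downstream 6 were bound, without mcm-2, and 3.29% of all genes were. That window left 5 of the 10 genes with a summit in both replicate lists, against 8 reported, and 8.09% of all genes. With 2 times as many pooled peaks, 22 of the 41 other replication genes were bound, against 14 reported, and 10.6% of all genes. This count was 10 with the window of 200 bp upstream to 100 bp downstream and among the stronger peaks, against 3.29% and 3.7% of all genes. It was 18 with the window of 1000 bp upstream to 500 bp downstream and with any overlap, against 8.5% and 7.59%. With either replicate alone it was 13 to 14, but the genes behind it need not be the same. In replicate 1 the bound genes orc-1 and ctf-4 ranked 1987 and 3341, and the unbound rpa-1 ranked 1676. The IDR-thresholded list holds 1841 peaks. Taking the summit nearest to any 5′ end lowered the median score of the 7 bound genes to 157, against 240, since it took 19.3 at mcm-4, 19.8 at mcm-6 and 31.5 at psf-3, the first 2 at internal 5′ ends. The E2F-like word count, 4 of 10, was the same within 100 bp of the summit, where 15.9% of IDR-thresholded and 3.57% of promoter windows held it; this setting was chosen after seeing the data. No paired analysis was possible because there is 1 group. Read depth, binding in single tissues and signal in worms without the tag cannot be read from these lists.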
